A study of Mus musculus with 24 samples.

Results

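Neural crest transcription factors and neurotrophin receptors were followed across B16-F10-luc2 mouse melanoma cells that carry or lack the related factors MITF, TFEB and TFE3. The genes were chosen by name, with earlier results of these data known, as 7 transcription factors (Sox10, Sox9, Pax3, Tfap2a, Snai2, Zeb1 and Zeb2) and 3 receptors (Ednrb, Ngfr and Ntrk3). Of these 10 genes, 9 have a row among the 12010 genes of the expression table, and Ednrb was not analysed here.

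Melanocytes descend from the neural crest, a migratory population of the embryo that also gives rise to Schwann cells and peripheral neurons. SOX10 and PAX3 switch on Mitf in the melanocyte lineage, SOX9 and TFAP2A act beside them, and SNAI2, ZEB1 and ZEB2 are zinc finger repressors of epithelial genes. NGFR, the low-affinity p75 receptor for neurotrophins, and NTRK3, the tyrosine kinase receptor for neurotrophin 3, are carried by crest-derived cells, and NGFR marks a dedifferentiated, neural crest-like melanoma state.

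The parental cells are a luciferase-marked B16-F10 line with all 3 factors intact. In the MITF KO, which carries a frameshift in Mitf, the TFE3 KO and the TFEB KO a single factor is disrupted, in the TFEB/TFE3 DKO, MITF/TFE3 DKO and MITF/TFEB DKO a pair, and in the TKO all 3. A faint, shorter band on the MITF blot of the study leaves room for some truncated protein in the MITF KO, so that "without MITF" below means edited in Mitf. The cells were untreated and grown in serum, and RNA was read from the 3′ end of polyadenylated transcripts in 3 libraries of each of the 8 lines, 24 in all. The Tfeb and Tfe3 KO cells were edited with CRISPR and isolated as clones, so that the genotype and the clone cannot be told apart in any comparison. The study made these edits in the parental and MITF KO cells, so that all lines without MITF share the same Mitf edit. Apart from the MITF KO, the line with MITF that matches each of them is a separate clone, not the cells it came from. Nothing in the sources used here says whether the libraries of a line came from separate cultures, and p-values then measure the spread between these libraries, which may be technical.

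Values are CPM, read counts scaled to the library total and further by the TMM method, and 1 read was worth between 0.0364 and 0.0545 CPM. Differences between lines were tested with limma on log2(CPM + 1) over all libraries, and fold changes below are on that scale unless given as a ratio of CPM, because adding 1 makes changes of weakly read genes look smaller. A gene is said to have risen or fallen where it differed by at least 2-fold with an unadjusted p under 0.05, the threshold used by the study. The p-values of limma were adjusted by Benjamini-Hochberg across the 12010 genes. Intervals on ratios of reads are exact 95% intervals and cover counting error only.

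The libraries held 18300902 to 26667877 reads on genes. All 16 melanocyte markers examined were in the table, and their summed level was 28008 to 28735 CPM in the parental libraries, 27911 to 42425 CPM across the 5 KO lines other than MITF/TFEB DKO and TKO, 17728 to 20697 CPM in MITF/TFEB DKO cells and 16470 to 17635 CPM in TKO cells. Tfeb averaged 8.80 CPM in the parental cells and 2.88 to 5.12 CPM in the 4 lines edited in Tfeb, and Tfe3 averaged 37.1 CPM in the parental cells and 8.63 to 19.8 CPM in the 4 lines edited in Tfe3. Mitf averaged 776 CPM in the parental cells and 1397 CPM in MITF KO cells, and a frameshifted transcript can persist, so that its level does not check the edit. Of the markers of other cell types, 4 of 10 fibroblast genes were in the table, with summed levels of 12.7 to 15.6 CPM in the parental cells, 45.7 to 54.4 CPM in MITF KO cells, 42.5 to 55.5 CPM in MITF/TFEB DKO cells and 17.9 to 28.4 CPM in the other 5 lines. Of 12 leukocyte genes 2 were present, at 5.12 CPM or less in sum, and of 10 keratinocyte genes only Krt14, listed at 0 in the parental cells, at 6.51 to 8.98 CPM in MITF/TFEB DKO cells and at 16.1 to 19.3 CPM in TKO cells. The part of other cells in the results below was not tested.

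Ngfr and Ntrk3 were the members that moved most, and in opposite directions. Ngfr was lowered in all 4 lines without MITF and lay near or below 1 CPM once MITF was lost together with TFE3, TFEB or both. Ntrk3 was close to absent in the parental cells and averaged 7.89 CPM in MITF KO cells and 0.898 CPM or less in every other line. Among the factors, Snai2 and Zeb2 tended to be higher where MITF was lost, Sox9 took opposite directions in different lines, and Tfap2a varied least. The highest line mean was 1.22 times the lowest for Tfap2a, 1.53 times for Sox10, 1.54 times for Pax3 and 1.65 times for Zeb2.

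**Figure D1:**
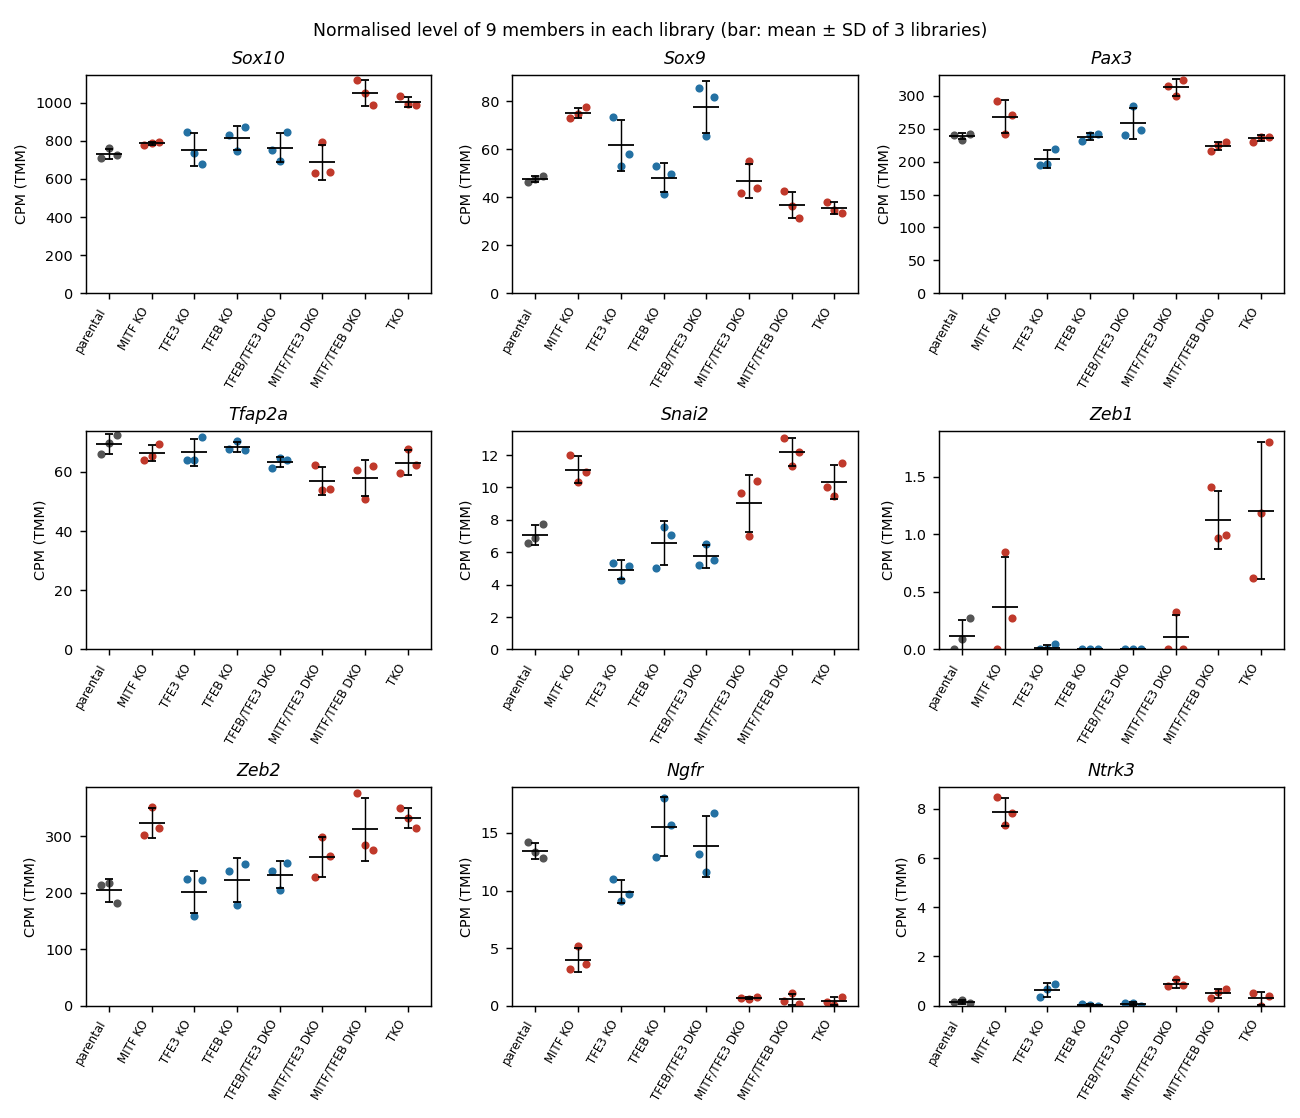
Level of the 9 members in each library, in CPM scaled by TMM on axes that start at 0. Dots are libraries (grey, parental; red, lines without MITF; blue, other KO lines) and the black bar is the mean ± SD of 3 libraries; Ngfr stands at 5.14 CPM or less in every library without MITF and at 9.09 CPM or more elsewhere, and Ntrk3 reaches 7.35 CPM or more only in MITF KO cells.

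Ngfr lies on the minus strand of chromosome 11 (GRCm39, chr11:95459638-95478561). Its promoter is shown because Ngfr fell in every line without MITF, and because MITF, TFEB and TFE3 bind E-boxes, short DNA motifs that can be searched for. The 250 bases before the RefSeq start (GRCm38.p6, chr11:95587699-95587948, minus strand, printed 5′ to 3′ along the gene) have a G and C content of 70.4%, and capitals mark 4 copies of the GC box GGGCGG on either strand.

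Ngfr: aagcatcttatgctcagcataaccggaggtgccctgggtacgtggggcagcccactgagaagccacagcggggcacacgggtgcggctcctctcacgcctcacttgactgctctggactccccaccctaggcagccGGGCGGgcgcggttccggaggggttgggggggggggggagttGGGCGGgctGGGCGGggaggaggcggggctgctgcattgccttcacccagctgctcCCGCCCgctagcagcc

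The GC box was found, on either strand, in 35.66% of the 32851 promoters of the same table, each running from 250 bases before to 50 after a start. Neither the E-box CACGTG (7.15% of promoters) nor CATGTG (14.15%), each searched on both strands, was in the Ngfr window, and nor was CACCTG (20.21%), the E-box variant that SNAI2, ZEB1 and ZEB2 bind. Promoters of Zeb2 and Tfap2a were also in the table and held none of these 3 E-boxes. The GC box was searched for after the sequence had been seen. These matches describe the letters of a window and say nothing about binding. The study counts Ngfr among targets bound by all 3 factors, with binding mapped in human melanoma cells. It also reports, from its RNA of these lines, that Ngfr was moderately lowered in every line without MITF.

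In the parental cells, Ngfr had 14.2, 13.4 and 12.8 CPM. The 3 libraries of MITF KO cells had 3.15, 5.14 and 3.60 CPM, those of MITF/TFE3 DKO cells 0.664, 0.612 and 0.731 CPM, those of MITF/TFEB DKO cells 0.431, 1.09 and 0.159 CPM, and those of TKO cells 0.328, 0.0476 and 0.731 CPM. No library without MITF reached the lowest parental library, and no library of the 3 lines that lack MITF and a second factor reached the lowest of MITF KO cells. The TKO values stand on 9, 1 and 17 reads. In bulk RNA, fewer cells that carry a transcript and less of it per cell cannot be told apart. Against the parental cells the log2 fold change of Ngfr was -1.56 in MITF KO cells (SE 0.205, adjusted p = 2.22e-06), -3.11 in MITF/TFE3 DKO cells (adjusted p = 4.65e-11), -3.25 in MITF/TFEB DKO cells (adjusted p = 5.49e-12) and -3.43 in TKO cells (adjusted p = 1.55e-12). The 100 genes around Ngfr had medians, against all genes, of 0.021, 0.008, -0.205 and -0.225 in the same order of lines. Their part in the Ngfr values was not tested.

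In mean CPM the parental cells held 3.40 times the level of MITF KO cells, 20.1 times that of MITF/TFE3 DKO cells, 24 times that of MITF/TFEB DKO cells and 36.5 times that of TKO cells. TKO cells had 0.0279 of the parental reads for Ngfr, with an interval from 0.0183 to 0.0409. The order of the 3 lowest lines could not be told from their spread, with adjusted p = 0.602 between MITF/TFE3 DKO cells and MITF/TFEB DKO cells and adjusted p = 0.682 between MITF/TFEB DKO cells and TKO cells.

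Lines with MITF intact kept Ngfr near the parental level. TFEB KO cells had 12.9, 18.01 and 15.7 CPM and TFEB/TFE3 DKO cells 13.1, 11.6 and 16.8 CPM, both overlapping the parental libraries. TFE3 KO cells had 10.97, 9.09 and 9.66 CPM, all below the parental libraries, with a log2 fold change of -0.41 that did not pass the test (SE 0.205, adjusted p = 0.205). The 7 comparisons with parental cells share the same 3 parental libraries.

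In cells edited in Mitf, Ngfr was lower still when a second factor was lost. Relative to MITF KO cells, its log2 fold change was -1.55 in MITF/TFE3 DKO cells (SE 0.205, adjusted p = 4.22e-06) and -1.69 in MITF/TFEB DKO cells (adjusted p = 3.89e-07). The difference between the effect of losing TFE3 in cells without MITF and in cells with it was -1.14 (SE 0.289, adjusted p = 0.0064), and for TFEB it was -1.88 (SE 0.289, adjusted p = 2.20e-05). With a pseudocount of 5 the difference for TFE3 was -0.345 and no longer passed, and the changes from MITF KO cells were short of 2-fold, at -0.655 in MITF/TFE3 DKO cells and -0.686 in MITF/TFEB DKO cells. Read the other way, losing MITF changed Ngfr by -2.705 in cells without TFE3 (adjusted p = 2.98e-10), by -3.44 in cells without TFEB (adjusted p = 1.69e-12) and by -3.45 in cells without both (adjusted p = 1.31e-12). No further fall was called between TKO cells and MITF/TFEB DKO cells, whose libraries overlapped, and the reads of TKO cells were 0.683 of those of MITF/TFEB DKO cells with an interval from 0.404 to 1.14.

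Ntrk3 lies on the minus strand of chromosome 7 (GRCm39, chr7:77825707-78387760). It had 0.129, 0.227 and 0.0899 CPM in the parental cells, which are 3, 5 and 2 reads. MITF KO cells had 8.47, 7.35 and 7.85 CPM, on 180, 183 and 144 reads. Every MITF KO library lay far above every library of the other 7 lines, of which the highest, in MITF/TFE3 DKO cells, had 1.08 CPM. Ntrk3 rose in MITF KO cells by 2.95 on the log2 scale (SE 0.158, adjusted p = 4.25e-13), and the ratio of reads to the parental cells was 53.0, with an interval from 28.6 to 111. The 100 genes around Ntrk3 had a median of -0.035 there, against all genes. The filter behind the expression table is not given, and Ntrk3 may have passed it through MITF KO cells alone.

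The rise of Ntrk3 was largely absent once a second factor was lost. MITF/TFE3 DKO cells had 0.789, 1.08 and 0.823 CPM, MITF/TFEB DKO cells 0.314, 0.546 and 0.677 CPM and TKO cells 0.510, 0 and 0.387 CPM. None of these libraries came near those of MITF KO cells. From MITF KO cells, the log2 fold change of Ntrk3 was -2.23 to MITF/TFE3 DKO cells (SE 0.158, adjusted p = 1.55e-10) and -2.56 to MITF/TFEB DKO cells (adjusted p = 4.19e-12). The levels in the double mutants nonetheless stood above the parental cells, by 0.72 in MITF/TFE3 DKO cells (adjusted p = 8.45e-04) and by 0.39 in MITF/TFEB DKO cells (adjusted p = 0.0396), where all 3 libraries of each were higher than all parental ones. Both differences were under the 2-fold threshold on this scale and over it with edgeR on the reads, at log2 fold changes of 2.55 (adjusted p = 0.00283) and 1.75 (adjusted p = 0.0316). Relative to parental, the 100 genes around Ntrk3 had medians, against all genes, of -0.287 in MITF/TFE3 DKO cells and 0.144 in MITF/TFEB DKO cells. Their part in the Ntrk3 values was not tested.

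In lines with MITF intact, Ntrk3 stood on few reads. TFE3 KO cells had 0.349, 0.692 and 0.887 CPM, on 7 to 19 reads, each above the parental libraries, with a log2 fold change of 0.50 (SE 0.158, adjusted p = 0.0393). With edgeR on the reads the value was over 2-fold, at 2.08 (adjusted p = 0.043), and the ratio of reads was 4.38, with an interval from 2.16 to 9.80. TFEB KO cells had at most 1 read in a library and TFEB/TFE3 DKO cells at most 3. The difference between the effect of losing TFE3 in cells without and with MITF was -2.73 for Ntrk3 (SE 0.224, adjusted p = 2.33e-09). For TFEB it was -2.41 (SE 0.224, adjusted p = 1.14e-08), while edgeR on the reads gave -1.90 with an adjusted p of 0.432. Between MITF/TFE3 DKO and TFE3 KO cells Ntrk3 differed by 0.22 (adjusted p = 0.275). EdgeR on the reads gave 3.78 for MITF/TFEB DKO against TFEB KO cells and 1.99 for TKO against TFEB/TFE3 DKO cells. EdgeR called both of these higher, and limma called neither at 2-fold.

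**Figure D2:**
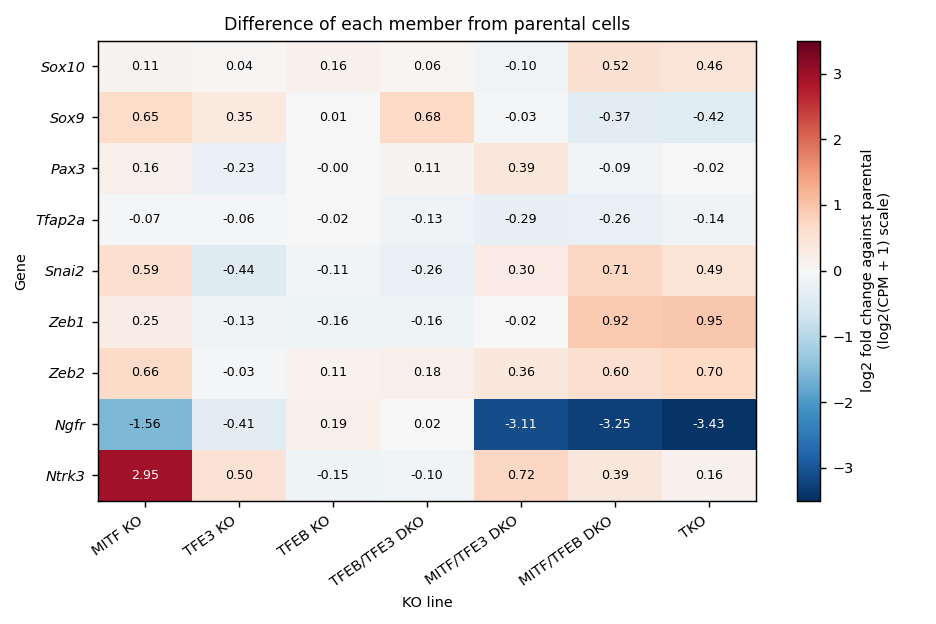
Log2 fold change of the 9 members in the 7 KO lines against the parental cells, on the log2(CPM + 1) scale, with red for higher and blue for lower. Ngfr ran from -1.56 to -3.43 in the 4 lines without MITF, and Ntrk3 reached 2.95 in MITF KO cells and 0.72 or less in the other 6.

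Sox9, an SRY-box factor of early crest and cartilage, differed in direction between lines. It lies on the plus strand of chromosome 11 (GRCm39, chr11:112673009-112678586), and its last 500 bases overlap the gene BC006965 on the opposite strand, so that reads of the pair could be mixed if the counting, for which no strand setting is given, ignored strand. The parental cells had 46.4, 47.5 and 49.0 CPM. MITF KO cells had 73.1, 74.7 and 77.4 CPM and TFEB/TFE3 DKO cells 85.7, 65.5 and 81.7 CPM, all above the parental libraries. MITF/TFEB DKO cells had 42.4, 36.3 and 31.5 CPM and TKO cells 38.2, 34.6 and 33.5 CPM, all below them.

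Relative to parental, Sox9 changed on the log2 scale by 0.65 in MITF KO cells (SE 0.131, adjusted p = 4.44e-04), 0.68 in TFEB/TFE3 DKO cells (adjusted p = 0.00158), -0.37 in MITF/TFEB DKO cells (adjusted p = 0.0186) and -0.42 in TKO cells (adjusted p = 0.0094). None of these reached 2-fold. The 100 genes around Sox9 had medians, against all genes, of -0.233 in MITF/TFEB DKO cells and -0.217 in TKO cells, and their part in the Sox9 values was not tested. In MITF KO and TFEB/TFE3 DKO cells these medians were 0.039 and -0.016. TFE3 KO cells, TFEB KO cells and MITF/TFE3 DKO cells averaged 61.6, 48.2 and 46.8 CPM, with adjusted p = 0.0836, 0.985 and 0.86.

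Sox9 passed the 2-fold threshold in comparisons between KO lines. It changed by -1.02 from MITF KO cells to MITF/TFEB DKO cells (SE 0.131, adjusted p = 9.53e-07), where every library of MITF/TFEB DKO cells lay below every library of MITF KO cells. The value was -0.947 with a pseudocount of 5, -0.998 without MITF KO replicate 3 and -0.918 without MITF/TFEB DKO replicate 3, each of which is short of 2-fold. It changed by -1.10 from TFEB/TFE3 DKO cells to TKO cells (SE 0.131, adjusted p = 1.89e-07). MITF/TFE3 DKO cells were also lower than MITF KO cells, at -0.68 (adjusted p = 3.51e-04). The loss of a second factor had a different effect with and without MITF, by -1.03 for TFE3 (SE 0.185, adjusted p = 2.75e-04) and by -1.03 for TFEB (adjusted p = 1.39e-04).

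Sox10, the SRY-box factor that maintains melanocyte and glial fate, was well expressed in every line. It lies on the minus strand of chromosome 15 (GRCm39, chr15:79039108-79049469). The parental libraries had 708, 762 and 723 CPM, those of MITF/TFEB DKO cells 1121, 1051 and 986 CPM, and those of TKO cells 1036, 994 and 988 CPM. Libraries of both KO lines lay above all parental ones. The log2 fold change was 0.52 in MITF/TFEB DKO cells (SE 0.0964, adjusted p = 7.51e-05) and 0.46 in TKO cells (adjusted p = 3.10e-04), or 1.44 and 1.38 times the parental mean. The other 5 KO lines averaged 686 to 816 CPM, with adjusted p from 0.403 to 0.851 against the parental cells.

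In cells without MITF, Sox10 was higher where TFEB was also lost. MITF/TFEB DKO cells exceeded MITF KO cells by 0.42 (SE 0.0964, adjusted p = 0.00104), and TKO cells exceeded MITF/TFE3 DKO cells by 0.56 (adjusted p = 4.21e-05). TFEB KO cells had 828, 748 and 872 CPM, overlapping the parental libraries. The difference between the effect of losing TFEB without and with MITF was 0.26 for Sox10 and did not pass the test (SE 0.136, adjusted p = 0.145). With quantile scaling it was 0.52 and passed.

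Pax3, a paired-box factor that acts with SOX10 on the Mitf promoter, lies on the minus strand of chromosome 1 (GRCm39, chr1:78077904-78173771). It had 241, 233 and 242 CPM in the parental cells, 315, 299 and 325 CPM in MITF/TFE3 DKO cells and 195, 196 and 219 CPM in TFE3 KO cells. The first of these KO lines lay above the parental libraries and the second below them. The log2 fold changes were 0.39 (SE 0.0751, adjusted p = 2.59e-04) and -0.23 (adjusted p = 0.0448, and 0.0547 with edgeR). The 100 genes around Pax3 had a median of 0.159 above that of all genes in MITF/TFE3 DKO cells and of -0.207 in TFE3 KO cells, and between these lines of 0.446 where Pax3 itself differed by 0.62 (adjusted p = 5.56e-07). The part of such regional shifts in the Pax3 values was not tested.

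In MITF/TFEB DKO cells and TKO cells, Pax3 averaged 224 and 236 CPM against 239 CPM in the parental cells, with adjusted p = 0.303 and 0.846. The genes around it had medians of 0.351 and 0.338 above all genes there. Losing TFE3 had a different effect without MITF than with it, by 0.46 for Pax3 (SE 0.106, adjusted p = 0.0034). For TFEB the difference was -0.25 (adjusted p = 0.0668), and it passed without MITF KO replicate 2, at -0.33.

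Tfap2a, an AP-2 factor of the neural plate border and of melanocytes, varied least. It lies on the minus strand of chromosome 13 (GRCm39, chr13:40868778-40891852). The parental cells had 66.0, 69.9 and 72.6 CPM, and all 24 libraries fell between 50.8 and 72.6 CPM. Its lowest means were 56.9 CPM in MITF/TFE3 DKO cells, with a log2 fold change of -0.29 (SE 0.0851, adjusted p = 0.00958), and 57.9 CPM in MITF/TFEB DKO cells, with -0.26 (adjusted p = 0.0116). TKO cells averaged 63.2 CPM and overlapped the parental libraries (adjusted p = 0.181).

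The 3 zinc finger repressors shared a direction in MITF/TFEB DKO cells and TKO cells. Snai2, also called Slug, lies on the plus strand of chromosome 16 (GRCm39, chr16:14523425-14527252). It had 6.56, 6.87 and 7.73 CPM in the parental cells, 12.0, 10.4 and 10.95 CPM in MITF KO cells, 13.1, 11.3 and 12.2 CPM in MITF/TFEB DKO cells and 10.0, 9.46 and 11.5 CPM in TKO cells. These 3 KO lines did not overlap the parental cells, while MITF/TFE3 DKO cells, with 9.63, 7.02 and 10.4 CPM, did. The log2 fold changes were 0.59 in MITF KO cells (SE 0.15, adjusted p = 0.00347), 0.71 in MITF/TFEB DKO cells (adjusted p = 3.36e-04), 0.49 in TKO cells (adjusted p = 0.00787) and 0.30 in MITF/TFE3 DKO cells (adjusted p = 0.114). The 100 genes around Snai2 had medians, against all genes, of -0.066, 0.284, 0.286 and 0.099 in the same order of lines. The part of such regional shifts in the Snai2 values was not tested.

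Snai2 was lowest in TFE3 KO cells, with 5.34, 4.28 and 5.18 CPM, at a log2 fold change of -0.44 that did not pass the test (adjusted p = 0.0565). The genes around Snai2 had a median of -0.329 there against all genes. Against the matching line that keeps MITF, Snai2 was 0.74 higher in MITF/TFE3 DKO cells (adjusted p = 3.20e-04), 0.82 in MITF/TFEB DKO cells (adjusted p = 7.11e-05) and 0.75 in TKO cells (adjusted p = 1.88e-04). In each of these comparisons all 3 libraries without MITF were above all 3 with it. The genes around Snai2 were also higher in each, with medians of 0.358, 0.245 and 0.233 above all genes.

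Zeb2, which supports melanocyte differentiation, lies on the minus strand of chromosome 2 (GRCm39, chr2:44873644-45007464). It had 215, 217 and 181 CPM in the parental cells, 302, 353 and 314 CPM in MITF KO cells, 377, 284 and 276 CPM in MITF/TFEB DKO cells and 350, 332 and 316 CPM in TKO cells. All 9 of these KO libraries were above the parental ones. The log2 fold changes were 0.66 (SE 0.145, adjusted p = 9.79e-04), 0.60 (adjusted p = 0.00126) and 0.70 (adjusted p = 2.71e-04). The 100 genes around Zeb2 had medians, against all genes, of -0.283, -0.157 and -0.146 in the same order of lines. Their part in the Zeb2 values was not tested. In MITF/TFE3 DKO cells Zeb2 had 227, 298 and 266 CPM, which is 0.36 above parental on the log2 scale (adjusted p = 0.049). The 3 KO lines with MITF intact averaged 202, 223 and 232 CPM and overlapped the parental cells.

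Zeb1, which is raised in dedifferentiated melanoma, was weakly read in every line and highest in MITF/TFEB DKO cells and TKO cells. It had 0, 2 and 6 reads in the parental libraries, 36, 23 and 25 reads in MITF/TFEB DKO cells and 17, 25 and 42 reads in TKO cells. These stand for 1.41, 0.966 and 0.995 CPM in MITF/TFEB DKO cells and for 0.619, 1.19 and 1.81 CPM in TKO cells, each above all parental libraries. MITF KO cells had 0, 21 and 5 reads, and their libraries overlapped the parental ones. The library with 21 reads, at 0.843 CPM, lay above the lowest TKO library. TFEB KO cells and TFEB/TFE3 DKO cells had no read in any library. Only MITF/TFEB DKO cells and TKO cells had reads of Zeb1 in every library. The filter behind the expression table is not given, and Zeb1 may have passed it through these lines alone. Its rises there are therefore descriptions and no independent test.

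Against the parental cells, Zeb1 was 0.92 higher in MITF/TFEB DKO cells on the log2(CPM + 1) scale (SE 0.198, adjusted p = 4.00e-04) and 0.95 in TKO cells (adjusted p = 3.05e-04), short of 2-fold on that scale. The ratios of reads were 9.51, with an interval from 4.61 to 22.7, and 9.87, with an interval from 4.78 to 23.6. Zeb1 rose in MITF/TFEB DKO cells against TFEB KO cells (adjusted p = 7.03e-05) and in TKO cells against TFEB/TFE3 DKO cells (adjusted p = 5.42e-05). The exact intervals on the ratio of reads had lower limits of 18.6 and 20.7 and no upper limit. Both rises were short of 2-fold on the log2 scale with a pseudocount of 5, at 0.292 and 0.307. So was the first with quantile scaling, at 0.905, and without MITF/TFEB DKO replicate 1, at 0.986, and the second without TKO replicate 3, at 0.913.

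**Figure D3:**
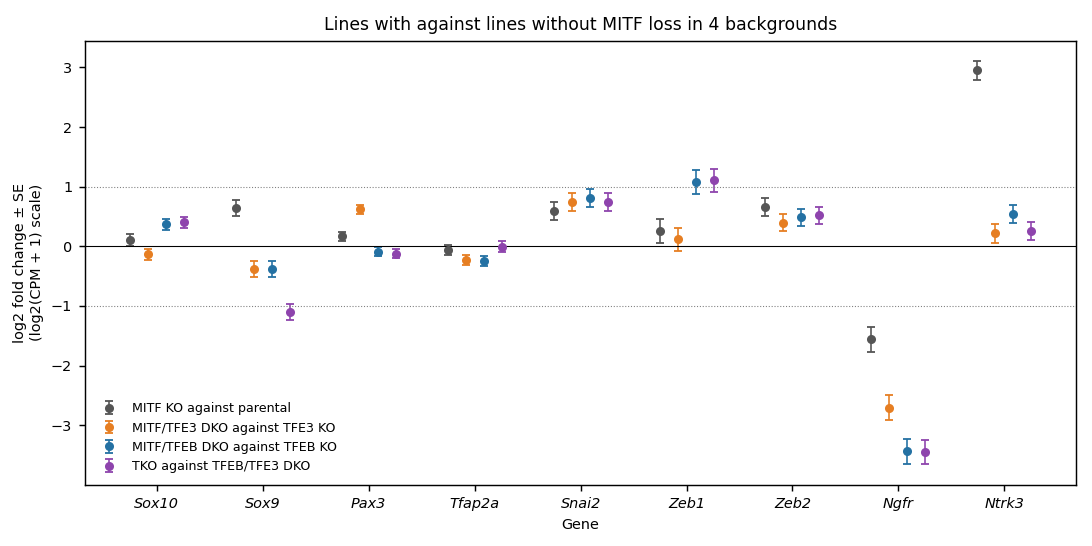
Log2 fold change ± SE of each member between a line without MITF and the matching line with it, on the log2(CPM + 1) scale, in 4 backgrounds; dotted lines mark 2-fold. Ngfr was lower in all 4 backgrounds (from -1.56 to -3.45), Snai2 and Zeb2 were higher in all 4, and Sox9 was higher only in the otherwise intact background. The 4 lines without MITF share the same Mitf edit.

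Few members passed the 2-fold threshold, and their counts are set beside the share of all 12010 genes called. In MITF KO cells 1 member rose (Ntrk3, where 3.29% of genes rose) and 1 fell (Ngfr, where 2.99% fell), and 6.28% of genes were called in all. Ngfr was the 1 member called, and fell, in MITF/TFE3 DKO cells (2.37% of genes fell, 5.87% called), MITF/TFEB DKO cells (4.94% fell, 13.7% called) and TKO cells (6.41% fell, 14.7% called). No member was called by limma in TFE3 KO (1.71% of genes called), TFEB KO (0.783%) or TFEB/TFE3 DKO cells (0.958%). In those lines 4, 0 and 1 members had an unadjusted p under 0.05, and edgeR called 1, 0 and 0. For counts at an unadjusted p alone or by edgeR, here and below, the share of all genes was not computed. Such counts cannot be read as high or low for these genes.

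Between KO lines, Ngfr and Ntrk3 fell from MITF KO cells to MITF/TFE3 DKO cells (1.67% of genes fell, 5.06% called), and Sox9 with them to MITF/TFEB DKO cells (3.99% fell, 10.9% called). No member was called by limma between MITF/TFE3 DKO cells and TKO cells (11.4%), with 6 members at an unadjusted p under 0.05 and 2 called by edgeR, or between MITF/TFEB DKO cells and TKO cells (2.3%), with 0 and 0. Losing MITF lowered Ngfr in cells without TFE3 (2.62% of genes fell, 8% called). In cells without TFEB it raised Zeb1 (9.32% rose) and lowered Ngfr (5.35% fell, 14.7% called), and in cells without both it raised Zeb1 (8.89% rose) and lowered Sox9 and Ngfr (7.02% fell, 15.9% called). EdgeR on the reads also called Ntrk3 higher in cells without TFEB and in cells without both. For Zeb1, the limit of the filter given above applies.

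At an adjusted p under 0.05 and any fold, more members passed, as did more genes. They were 5 in MITF KO cells (37.8% of all genes), 5 in MITF/TFE3 DKO cells (41.9%), 8 in MITF/TFEB DKO cells (56.1%) and 6 in TKO cells (56.2%), against 2 in TFE3 KO cells (12.3%), 0 in TFEB KO cells (4.84%) and 1 in TFEB/TFE3 DKO cells (8.81%). From MITF KO cells, 5 members passed to MITF/TFE3 DKO cells (37.7%) and 6 to MITF/TFEB DKO cells (49%), of which Zeb1 did not pass with edgeR (adjusted p = 0.141), and into TKO cells 5 passed from MITF/TFE3 DKO cells (50.8%) and 0 from MITF/TFEB DKO cells (12.4%). For MITF loss, 6 passed in cells without TFE3 (45%), 8 without TFEB (56.5%) and 6 without both (57.9%). The difference between losing a second factor without and with MITF passed for 4 members with TFE3 (20.2% of genes), namely Sox9, Pax3, Ngfr and Ntrk3, and for 4 with TFEB (35.1%), namely Sox9, Zeb1, Ngfr and Ntrk3. The 8 in MITF/TFEB DKO cells were all but Pax3, with 5 higher and 3 lower. The median log2 fold change of the members was 0.25 in MITF KO cells, -0.02 in MITF/TFE3 DKO cells, 0.39 in MITF/TFEB DKO cells, 0.16 in TKO cells, -0.06 in TFE3 KO cells, -0.0037 in TFEB KO cells and 0.02 in TFEB/TFE3 DKO cells, and the median of all genes was within 0.016 of 0 in each.

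When the 8 lines were ordered by their mean level, most neighbours did not differ beyond their spread. The order was set by the same means, so that neighbours are the lines closest in level. Lines further apart can still differ, as Snai2 and Zeb2 did between KO lines and the parental cells. For Tfap2a, Snai2 and Zeb2 no neighbouring pair differed at an adjusted p under 0.05. Sox10 stepped down once, from TKO cells (1006 ± 26.0 CPM) to TFEB KO cells (816 ± 62.7 CPM, adjusted p = 0.01), Sox9 from MITF/TFE3 DKO (46.8 ± 7.09 CPM) to MITF/TFEB DKO cells (36.7 ± 5.46 CPM, adjusted p = 0.0358), and Pax3 from MITF/TFE3 DKO (313 ± 12.8 CPM) to MITF KO cells (269 ± 24.5 CPM, adjusted p = 0.0231). Ngfr had 2 such steps, from TFE3 KO (9.91 ± 0.966 CPM) to MITF KO cells (3.96 ± 1.04 CPM, adjusted p = 7.24e-05), and from there to MITF/TFE3 DKO cells (0.669 ± 0.0596 CPM). Zeb1 stepped from MITF/TFEB DKO (1.12 ± 0.249 CPM) to MITF KO cells (0.372 ± 0.430 CPM, adjusted p = 0.00757, but 0.141 with edgeR), and Ntrk3 from MITF KO (7.89 ± 0.563 CPM) to MITF/TFE3 DKO cells (0.898 ± 0.161 CPM).

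Over the means of the 8 lines, some members ran in parallel. Snai2 and Zeb2 had a Pearson r of 0.91, and Ngfr ran against both, with r = -0.81 and -0.815. Among the 9539 genes with a mean of at least 5 CPM, those most like Ngfr were Dok5, Wbp11 and Csnk1e (r = 0.994, 0.993 and 0.988). Those most like Sox10 were Lmna, Tmcc2 and Akr1b8 (0.995, 0.995 and 0.993), most like Sox9 Gtf2ird1, Spg11 and Erbb2 (0.952, 0.951 and 0.949), and most like Pax3 Ice2, Gucd1 and Banp (0.962, 0.957 and 0.957). Tfap2a was most like Bptf, Tbca and Etaa1 (0.970, 0.963 and 0.962), Snai2 most like Htra3, Arvcf and Abat (0.983, 0.982 and 0.982), and Zeb2 most like Nudt18, Synrg and Gm26559 (0.991, 0.988 and 0.987). Zeb1 and Ntrk3 were below that mean and were not compared. These are descriptions over 8 points that share clones and libraries.

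Genes that work beside the members were counted from lists, and each count called by limma against the parental cells is to be read against the share of all 12010 genes called. Counts at an unadjusted p alone or by edgeR have no such share beside them. Over all genes, 3.29% rose and 2.99% fell in MITF KO cells, 3.5% rose and 2.37% fell in MITF/TFE3 DKO cells, 8.78% rose and 4.94% fell in MITF/TFEB DKO cells and 8.28% rose and 6.41% fell in TKO cells. Few did in the other lines, where 0.366% rose and 1.34% fell in TFE3 KO cells, 0.192% rose and 0.591% fell in TFEB KO cells and 0.575% rose and 0.383% fell in TFEB/TFE3 DKO cells.

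Of 26 genes of the neurotrophin system, 14 were in the table. In MITF KO cells 1 rose (6.28% of all genes called), in MITF/TFE3 DKO cells 1 rose and 1 fell (5.87%), in MITF/TFEB DKO cells 2 rose (13.7%), and 1 rose in TKO cells (14.7%) and in TFEB/TFE3 DKO cells (0.958%). No gene of the list was called by limma in TFE3 KO or TFEB KO cells, with 6 and 5 at an unadjusted p under 0.05 and 0 and 1 called by edgeR. The median log2 fold change of the list lay between -0.03 and 0.19 over the 7 KO lines, and that of all genes within 0.016 of 0. Bdnf, a neurotrophin ligand that NGFR also binds, had 2.42 ± 0.0857 CPM (SD, n = 3) in the parental cells. It rose to 8.15 ± 0.585 CPM in MITF KO cells (adjusted p = 1.29e-07), to 7.22 ± 0.615 CPM in TFEB/TFE3 DKO cells and to 6.20 ± 0.303 CPM in MITF/TFEB DKO cells. In MITF/TFE3 DKO and TKO cells Bdnf had 2.84 ± 0.798 CPM and 2.72 ± 0.777 CPM. TFEB KO cells had 4.97 ± 0.110 CPM, which is 0.80 above parental on the log2(CPM + 1) scale (adjusted p = 0.00185) and short of 2-fold there. Gab1, a docking adaptor of receptor tyrosine kinases, rose from 4.74 ± 1.35 CPM to 11.7 ± 2.97 CPM in MITF/TFE3 DKO cells, 21.6 ± 9.21 CPM in MITF/TFEB DKO cells and 18.4 ± 0.442 CPM in TKO cells. Bex3, an adaptor that binds the NGFR intracellular domain, fell from 172 ± 12.2 CPM to 81.4 ± 4.22 CPM in MITF/TFE3 DKO cells (adjusted p = 1.12e-09). In every other KO line Bex3 was also lower but short of 2-fold. Its means there ran from 86.6 CPM in TKO cells (adjusted p = 1.02e-09) to 136 CPM in TFEB KO cells (adjusted p = 0.0204).

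Of 15 endothelin system genes, the partners of the receptor Ednrb, 7 were in the table, with a median between -0.05 and 0.15. In MITF KO (6.28% of all genes called), MITF/TFE3 DKO (5.87%) and MITF/TFEB DKO cells (13.7%) 1 rose, in TKO cells 2 rose (14.7%), and in TFEB/TFE3 DKO cells 1 fell (0.958%). These are counts of 1 or 2 among 7 genes. None was called by limma in TFE3 KO or TFEB KO cells, with 3 and 2 at an unadjusted p under 0.05 and 0 and 1 called by edgeR. Arrb1, which uncouples receptors from G proteins, rose from 10.8 ± 1.36 CPM to 27.6 ± 2.97 CPM in MITF KO cells, 44.3 ± 2.56 CPM in MITF/TFEB DKO cells and 30.7 ± 2.93 CPM in TKO cells. Ece1, which cleaves the endothelin precursor, rose from 1.53 ± 0.676 CPM to 4.08 ± 0.124 CPM in MITF/TFE3 DKO cells and 4.04 ± 0.418 CPM in TKO cells, and fell to 0.193 ± 0.335 CPM in TFEB/TFE3 DKO cells.

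Of 30 further neural crest specifiers and EMT factors, 12 were in the table. None was called by limma in MITF KO, TFE3 KO, TFEB KO or TFEB/TFE3 DKO cells, with 6, 1, 2 and 2 at an unadjusted p under 0.05 and 2, 1, 0 and 0 called by edgeR. Of the 12, 1 rose in MITF/TFE3 DKO cells (5.87% of all genes called), and 3 rose and 1 fell in MITF/TFEB DKO cells (13.7%), as also in TKO cells (14.7%). The list median was 0.42 in MITF/TFEB DKO cells, 0.41 in TKO cells and 0.29 in MITF/TFE3 DKO cells. Id2, an inhibitor of helix-loop-helix factors, fell from 471 ± 26.6 CPM to 97.6 ± 5.99 CPM in MITF/TFEB DKO cells and 64.4 ± 3.05 CPM in TKO cells (adjusted p = 1.53e-15). Its relative Id3 rose from 12.4 ± 6.19 CPM to 58.2 ± 15.9 CPM in MITF/TFE3 DKO cells, 51.4 ± 17.96 CPM in MITF/TFEB DKO cells and 34.2 ± 8.78 CPM in TKO cells. Tcf4, a helix-loop-helix factor, rose from 77.9 ± 5.73 CPM to 167 ± 2.80 CPM in MITF/TFEB DKO cells and 260.5 ± 2.12 CPM in TKO cells. Tfap2b, a relative of Tfap2a, rose from 1.18 ± 0.285 CPM to 5.38 ± 0.218 CPM and 4.74 ± 1.03 CPM in the same pair of lines.

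Cadherins and other readouts of epithelial-mesenchymal transition, a process that SNAI2 and the ZEB factors drive, had 11 of 20 genes in the table. Of these, 4 rose in MITF/TFEB DKO cells (13.7% of all genes called) and 5 in TKO cells (14.7%), 1 rose in TFEB KO cells (0.783%), 1 in TFEB/TFE3 DKO cells (0.958%), and 1 rose and 1 fell in MITF/TFE3 DKO cells (5.87%). None was called by limma in MITF KO or TFE3 KO cells, with 7 and 2 at an unadjusted p under 0.05 and 1 and 0 called by edgeR. The list median was 0.73 in MITF/TFEB DKO cells and 0.88 in TKO cells. Fn1, the matrix protein fibronectin, rose from 16.8 ± 3.78 CPM to 181 ± 9.99 CPM in MITF/TFEB DKO cells and 287 ± 11.6 CPM in TKO cells. Cdh2, N-cadherin, rose from 29.5 ± 0.253 CPM to 78.2 ± 3.72 CPM and 90.7 ± 1.55 CPM, and Vim, vimentin, from 849 ± 101 CPM to 2027 ± 302 CPM and 1792 ± 112 CPM in these lines. S100a4, a calcium-binding protein, rose from 37.8 ± 1.24 CPM to 139 ± 7.30 CPM in TFEB KO cells and 202 ± 29.4 CPM in TFEB/TFE3 DKO cells. It rose to 91.2 ± 9.22 CPM in MITF/TFE3 DKO cells, 476 ± 34.1 CPM in MITF/TFEB DKO cells and 463 ± 11.2 CPM in TKO cells.

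Schwann cell and glial genes, which SOX10 also serves outside the melanocyte lineage, had the most calls of these lists. Of 20 genes 14 were in the table. In MITF KO cells 9 rose (3.29% of all genes rose), in MITF/TFE3 DKO cells 6 (3.5%), in MITF/TFEB DKO cells 13 (8.78%) and in TKO cells 12 (8.28%), with none falling. In TFE3 KO cells 1 rose and 2 fell (1.71% of all genes called), and in TFEB KO and TFEB/TFE3 DKO cells none was called by limma, with 4 and 6 at an unadjusted p under 0.05 and 1 and 1 called by edgeR. The list had a median log2 fold change of 1.08 in MITF KO cells, 0.88 in MITF/TFE3 DKO cells, 2.35 in MITF/TFEB DKO cells and 2.15 in TKO cells, where all genes had medians within 0.016 of 0. This list was chosen with earlier results of these data known, so that its counts describe the genes and are no independent test.

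**Figure D4:**
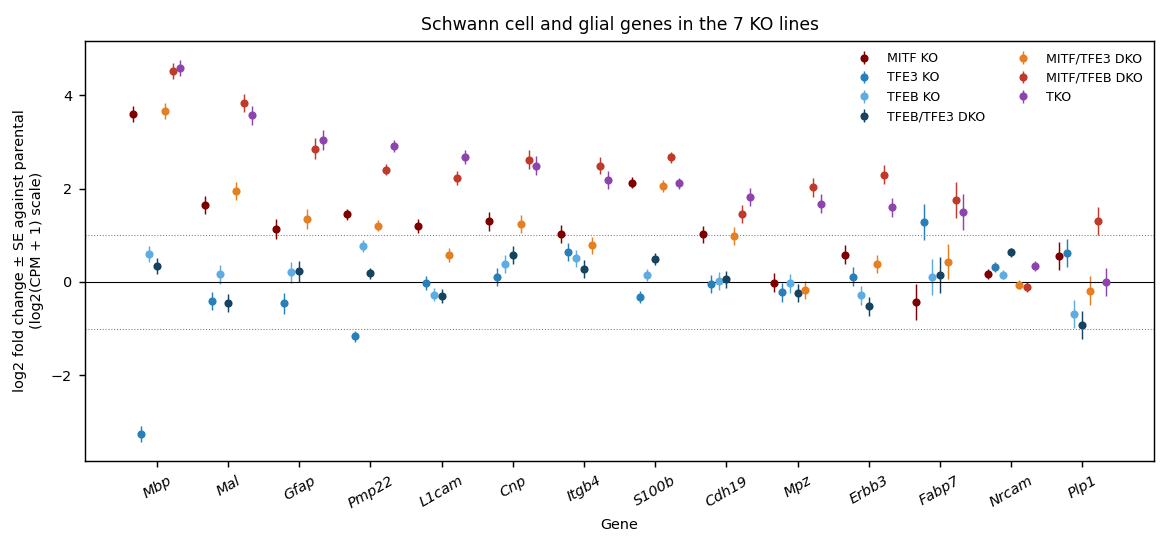
Log2 fold change ± SE of 14 Schwann cell and glial genes in the 7 KO lines against the parental cells, on the log2(CPM + 1) scale, ordered by TKO cells; dotted lines mark 2-fold. MITF/TFEB DKO cells and TKO cells lie highest for most genes, and Mbp falls to -3.26 in TFE3 KO cells.

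Mbp, a structural protein of myelin, rose from 69.2 ± 3.14 CPM in the parental cells to 849.8 ± 77.6 CPM in MITF KO cells, 892 ± 63.6 CPM in MITF/TFE3 DKO cells, 1615 ± 88.7 CPM in MITF/TFEB DKO cells and 1687 ± 37.9 CPM in TKO cells. It fell to 6.40 ± 1.28 CPM in TFE3 KO cells (adjusted p = 5.08e-12). Mal, a myelin proteolipid, rose from 2.91 ± 0.655 CPM to 11.2 ± 1.58 CPM in MITF KO cells and 13.9 ± 1.28 CPM in MITF/TFE3 DKO cells. In MITF/TFEB DKO and TKO cells Mal rose to 54.0 ± 2.58 CPM and 45.0 ± 0.369 CPM. Gfap, a glial intermediate filament, rose from 2.90 ± 0.327 CPM to 7.52 ± 0.331, 9.05 ± 2.42, 27.3 ± 2.68 and 30.9 ± 2.56 CPM in the same order of lines. Pmp22, a peripheral myelin protein, rose from 20.5 ± 3.92 CPM to 57.1 ± 4.69 CPM in MITF KO cells and 48.1 ± 5.14 CPM in MITF/TFE3 DKO cells. In MITF/TFEB DKO and TKO cells it rose to 112 ± 8.10 CPM and 159 ± 3.12 CPM. It fell to 8.49 ± 1.29 CPM in TFE3 KO cells, and was 0.77 higher on the log2 scale in TFEB KO cells (adjusted p = 2.74e-04). Ngfr, which immature Schwann cells also carry, fell in the 4 lines in which Mbp rose.

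Of the 16 melanocyte markers, 1 rose and 9 fell in MITF/TFEB DKO cells (13.7% of all genes called) and 1 rose and 11 fell in TKO cells (14.7%), against 1 rising and 1 falling in MITF KO cells and 2 rising in MITF/TFE3 DKO cells. In TFE3 KO cells 1 fell, in TFEB KO cells 1 rose and 1 fell, and in TFEB/TFE3 DKO cells 1 rose. The list median was -1.04 in MITF/TFEB DKO cells and -1.53 in TKO cells. Tyr, the first enzyme of melanin synthesis, fell from 131 ± 4.13 CPM to 12.8 ± 1.16 CPM in MITF/TFEB DKO cells and 8.35 ± 0.604 CPM in TKO cells, and had 111 ± 8.50 CPM in MITF KO cells (adjusted p = 0.202). Slc45a2, a melanosome transporter, fell from 409 ± 28.4 CPM to 60.7 ± 5.43 CPM in MITF/TFEB DKO cells and 48.2 ± 5.10 CPM in TKO cells. Trpm1, a melanocyte channel, fell from 19.6 ± 3.18 CPM to 8.81 ± 1.75 CPM and 1.49 ± 0.609 CPM in these lines. Bcan, a proteoglycan, rose from 3.94 ± 0.713 CPM to 59.2 ± 4.33 CPM in MITF KO cells and 44.6 ± 6.53 CPM in MITF/TFE3 DKO cells. It also rose to 12.7 ± 1.90 CPM in MITF/TFEB DKO cells and 9.93 ± 0.520 CPM in TKO cells, and fell to 1.07 ± 0.331 CPM in TFEB KO cells. Sox10 was higher in the MITF/TFEB DKO and TKO lines, those in which most melanocyte markers fell.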

How the data were processed

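Per the labels and the study's methods, 3′-end libraries (QuantSeq Forward) of 24 samples were trimmed by the authors with Trim Galore 0.6.5 and cutadapt 2.10, mapped with STAR 2.7.8a to mm39 and normalized with edgeR. The counting tool, annotation, strand setting and filter are not given in the sources used here. The deposited signal was CPM divided by TMM factors for 12010 genes, and columns of other samples numbered 0. The design had assumed plain CPM, and the same limma test was kept. Whole reads were recovered for 99.99% of values (tolerance 0.05 reads).

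limma 3.58.1 (R 4.3.3) was fitted with a variance trend on log2(value + 1), with 16 residual degrees of freedom and no filter. edgeR 4.0.16 on the reads, pseudocounts of 0.25 and 5, a mean of at least 5 CPM, median-of-ratios and quantile scaling, a Benjamini-Hochberg threshold, no trend, a fit of just the compared libraries, a replicate block and left-out replicates were alternatives. Scripts were tested on simulated data.

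The members and lists were chosen with earlier results of these data known. Named genes are the members, the targeted genes, at most 4 genes per list with the largest called change against the parental cells, and the 3 most similar genes of each member averaging at least 5 CPM. Positions are from GENCODE M39 on GRCm39, promoters from RefSeq (GRCm38.p6, 3 of 9 members matched).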

Additional observations from a re-analysis of the deposited data

Results flagged for a closer look

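Loss of a second factor had a different effect in cells without MITF than in cells with it for 8 of 18 tests over 9 members, at an adjusted p under 0.05 for the difference itself (limma). For the loss of TFE3, where 20.2% of all genes passed, the differences in log2 fold change were -1.03 for Sox9, 0.46 for Pax3, -1.14 for Ngfr and -2.73 for Ntrk3. For the loss of TFEB, where 35.1% of all genes passed, they were -1.03 for Sox9, 0.83 for Zeb1, -1.88 for Ngfr and -2.41 for Ntrk3. The test for Zeb1 rests on at most 36 reads in a library and did not pass with edgeR (adjusted p = 0.0824), with quantile scaling (0.68) or without parental replicate 3 (0.73), MITF KO replicate 1 (0.62) or MITF/TFEB DKO replicate 1 (0.73). The test for Ngfr and TFE3 did not pass with a pseudocount of 5 (-0.345), and the test for Ntrk3 and TFEB did not pass with edgeR (adjusted p = 0.432). With quantile scaling the test for Sox10 and TFEB passed (0.52, against 0.26), so that 4 members passed for TFEB with Sox10 in place of Zeb1, and without MITF KO replicate 2 so did that for Pax3 and TFEB (-0.33).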

How the results depend on the processing

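No member value that passed its test changed direction under any alternative run. Scaling by median-of-ratios, the absence of a variance trend, a fit of only the libraries compared and the replicate block changed the call of none of the 144 member values, counted as 9 members in 14 comparisons and 2 differences. The replicate numbers did not pair the libraries (mean correlation of deviations 0.0222 for the same number), and with the replicate block the counts of members called were as reported, from 0 to 3 in each comparison and 4 for each difference. At an adjusted p under 0.05 and any fold, the counts were 5, 2 and 1 in MITF KO, TFE3 KO and TFEB/TFE3 DKO cells, 5 in MITF/TFE3 DKO cells, 8 in MITF/TFEB DKO cells, 6 in TKO cells, 5 and 6 for these DKOs against MITF KO cells, 5 for TKO cells against MITF/TFE3 DKO cells, and 6, 8 and 6 for MITF loss in cells without TFE3, TFEB or both. EdgeR on the reads called 1 in TFE3 KO cells, 2 in MITF/TFE3 DKO cells, 3 in MITF/TFEB DKO cells, 2 in TKO cells and 2 for TKO cells against MITF/TFE3 DKO cells, by Ntrk3 and Zeb1, and left 2 differences for TFEB. A pseudocount of 0.25 gave 1, 2, 2, 2 and 2 for the same 5 comparisons. A pseudocount of 5 gave 1 for each DKO against MITF KO cells and 1 for MITF/TFEB DKO cells against TFEB KO cells, where quantile scaling also gave 1. Among genes with a mean of at least 5 CPM, 1 was called in MITF KO cells, 1 in MITF/TFE3 DKO cells against it and 1 in MITF/TFEB DKO cells against TFEB KO cells, and 2 differences for TFEB passed. Zeb1 and Ntrk3 are outside that filter. With a replicate left out, counts ranged from 1 to 2 in MITF/TFEB DKO cells (2 without parental replicate 3, Zeb1 at 1.02), from 1 to 2 in TKO cells (2 without parental replicate 3 or TKO replicate 1, Zeb1 at 1.04 or 1.15), from 0 to 1 for TKO cells against MITF/TFE3 DKO cells (1 without MITF/TFE3 DKO replicate 2 or TKO replicate 1, Zeb1 at 1.10 or 1.17) and from 1 to 2 for MITF/TFEB DKO cells against TFEB KO cells (1 without MITF/TFEB DKO replicate 1). They ranged from 2 to 3 for MITF/TFEB DKO cells against MITF KO cells and TKO cells against TFEB/TFE3 DKO cells, and from 3 to 5 for the loss of TFEB. Reads limit Zeb1, Ntrk3 outside MITF KO cells and Ngfr in the 3 lines lacking MITF and a second factor, where a library holds at most 42, 23 and 26 reads.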
